A study of Mus musculus with 6 samples.

Results

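The members are 9 genes of the Janus kinase (JAK) and STAT signaling pathway in Tregs from the BM of mice: the transcription factors Stat3, Stat4, Stat5a, Stat5b, and Stat6, and the feedback inhibitors Cish, Socs1, Socs2, and Socs3. They were picked by gene symbol from the 36930 features of the deposited RNA-Seq tables, and all 9 passed the filter of a mean of at least 1 RPKM (reads normalized to transcript length and library size) over the libraries. Tregs were purified by FACS from the BM of 3 mice with chronic myeloid leukemia (CML) and 3 naive mice, and each mouse gave 1 library. All 6 mice were of the Foxp3-DTR-GFP strain, in which the Foxp3 locus drives a diphtheria toxin receptor fused to GFP, and the labels give their age as postnatal week 8. CML was induced by transferring BCR-ABL1-GFP–transduced stem and progenitor cells (lineage-negative, Sca-1+, c-Kit+ cells, LSKs) i.v. into syngeneic mice that had not been irradiated, and Tregs were taken at day 15 after CML induction. Naive mice carried the same Foxp3 allele and no leukemia. The leukemia virus and the Foxp3 allele both carry GFP, and the CML mice kept their own hematopoiesis beside the leukemia.

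STAT proteins wait in the cytoplasm until a cytokine receptor and its bound JAKs phosphorylate them, after which they dimerize and bind DNA at palindromic sites. IL-2 acts through STAT5 and keeps Foxp3 expressed in Tregs, whereas IL-6, IL-10, and IL-27 act mainly through STAT3, IL-12 through STAT4, and IL-4 and IL-13 through STAT6. CISH and the SOCS proteins are induced by STATs and close the loop by blocking the receptor or the kinase, so their mRNAs are commonly read as products of recent cytokine signaling. The comparison asks whether mRNAs of factors and inhibitors differed between Tregs of a leukemic and a healthy marrow.

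Matches to a STAT binding motif in the promoters are shown first because the 4 inhibitors are textbook STAT targets. Binding was not measured. Promoter windows from RefSeq on build GRCm38.p6, running from 250 bases before to 50 bases after each start, matched 8 of the 9 members, all but Socs2, with 11 windows. The motif TTCNNNGAA reads the same on both strands and was found in 8.3% of all 32851 windows, and 0.457% of them held more than 1 copy. Of the 8 members with a window, 2 had a match, and both are inhibitors. This counts genes, some of them with more than 1 window, whereas the 8.3% is a share of windows. Cish held a pair of matches, beginning at the start site (position 1) and at position 12. Socs3 held 1 match, 154 bases before its RefSeq start. No match was found in the windows of Socs1, Stat3, Stat4, Stat5a, Stat5b, or Stat6, which says only that these letters are not in those windows. The stretches below are written 5′ to 3′ along the strand of the gene, with the motif in capitals. The stretch of Cish is chr9:107296649-107296678 on the plus strand, from 10 bases before to 20 bases after the RefSeq start. It lies in an exon of the GENCODE M21 annotation, downstream of the GENCODE start of Cish at chr9:107296026. The stretch of Socs3 is chr11:117969467-117969566 and that of Socs1, shown as an inhibitor without a match, is chr16:10785537-10785636, both on the minus strand. Both lie upstream of the RefSeq start and outside the GENCODE exons of the gene. The Socs3 stretch lies within the GENCODE span of Socs3, chr11:117966079-117970047, and so downstream of its GENCODE start.
Cish: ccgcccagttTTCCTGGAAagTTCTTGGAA
Socs3: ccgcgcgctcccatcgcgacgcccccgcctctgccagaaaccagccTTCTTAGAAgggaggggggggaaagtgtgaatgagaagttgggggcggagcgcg
Socs1: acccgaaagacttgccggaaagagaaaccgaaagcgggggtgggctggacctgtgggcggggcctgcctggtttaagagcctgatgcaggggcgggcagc

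The libraries differed in depth and in makeup. Reads estimated from the deposited values ranged from 829181 (CML replicate 2) to 7613827 in the CML libraries and from 5187987 to 9751911 in the naive libraries. Features with reads numbered 12589 to 16214 in CML and 16332 to 18094 in naive libraries, so that all CML libraries had fewer. A set of 5 unnamed LOC features took 4.35%, 36.1%, and 10.1% of the summed RPKM in CML replicates 1, 2, and 3 and 1.31% to 2.95% in naive libraries. The label Treg was borne out by the markers: Foxp3, Cd3e, Cd3d, Cd3g, Cd4, Il2ra, Ctla4, and Ikzf2 were detected in all 6 libraries, with summed levels of 1889 to 2545 RPKM in CML and 1862 to 2101 RPKM in naive. The 8 neutrophil and myeloid markers summed to 21.4 RPKM in CML replicate 1, to 212 RPKM in CML replicate 2, to 217 RPKM in CML replicate 3, and to 30.4 to 60.2 RPKM in naive libraries. Erythroid markers (7 of 8 in the files) summed to 122, 35.6, and 203.5 RPKM in CML and 5.01 to 29.6 RPKM in naive libraries, so that their ranges did not overlap. Summed levels of B cell markers (3.18 to 8.80 RPKM in CML and 8.42 to 10.7 RPKM in naive, with Pax5 and Ebf1 at 0 in all 6 libraries), of CD8 T and NK cell markers (51.1 to 79.9 and 26.4 to 59.2 RPKM), and of stem and progenitor markers (7.90 to 17.9 and 13.1 to 18.2 RPKM) overlapped between groups.

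Among the 4 feedback inhibitors, Cish, Socs1, and Socs3 had CML values that all exceeded the naive values, by 1.97, 1.90, and 1.75 times in the means, and Socs2 overlapped. Of the 5 factors, Stat3 was higher in every CML library (1.42 times in the means) and Stat6 was lower in every CML library (0.667 times), while Stat4, Stat5a, and Stat5b overlapped. No member passed an adjusted p of 0.05 with a fold of at least 1.5 in limma over the 13923 genes tested, a call that 0.0431% of these genes met as higher and 0.129% as lower in CML. With the same fold and p below 0.05 before adjustment, 3 of 9 members were higher in CML (Cish, Socs1, and Socs3) beside 2.61% of all genes, and 1 of 9 was lower (Stat6) beside 5.94%. The CML values all exceeded the naive values for 4 of 9 members beside 4.84% of all genes, and all fell short of them for 1 of 9 beside 12.2%. The median log2 fold change of the members was 0.17, with 6 of 9 above zero, and that of all genes tested was −0.18, with 4977 above zero. With a shared 75th percentile the medians were −0.02, with 4 of 9 members above zero, and −0.36, so that the sign of the members' median depends on the scaling. Log2 fold changes are differences of mean log2(RPKM + 1), CML minus naive, which understates the change of low genes. The limma p-values weigh a difference against the spread between these mice, with each gene's variance drawn toward that of genes of similar level. An exact permutation test of 3 against 3 mice cannot give a p below 0.1.

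**Figure D1:**
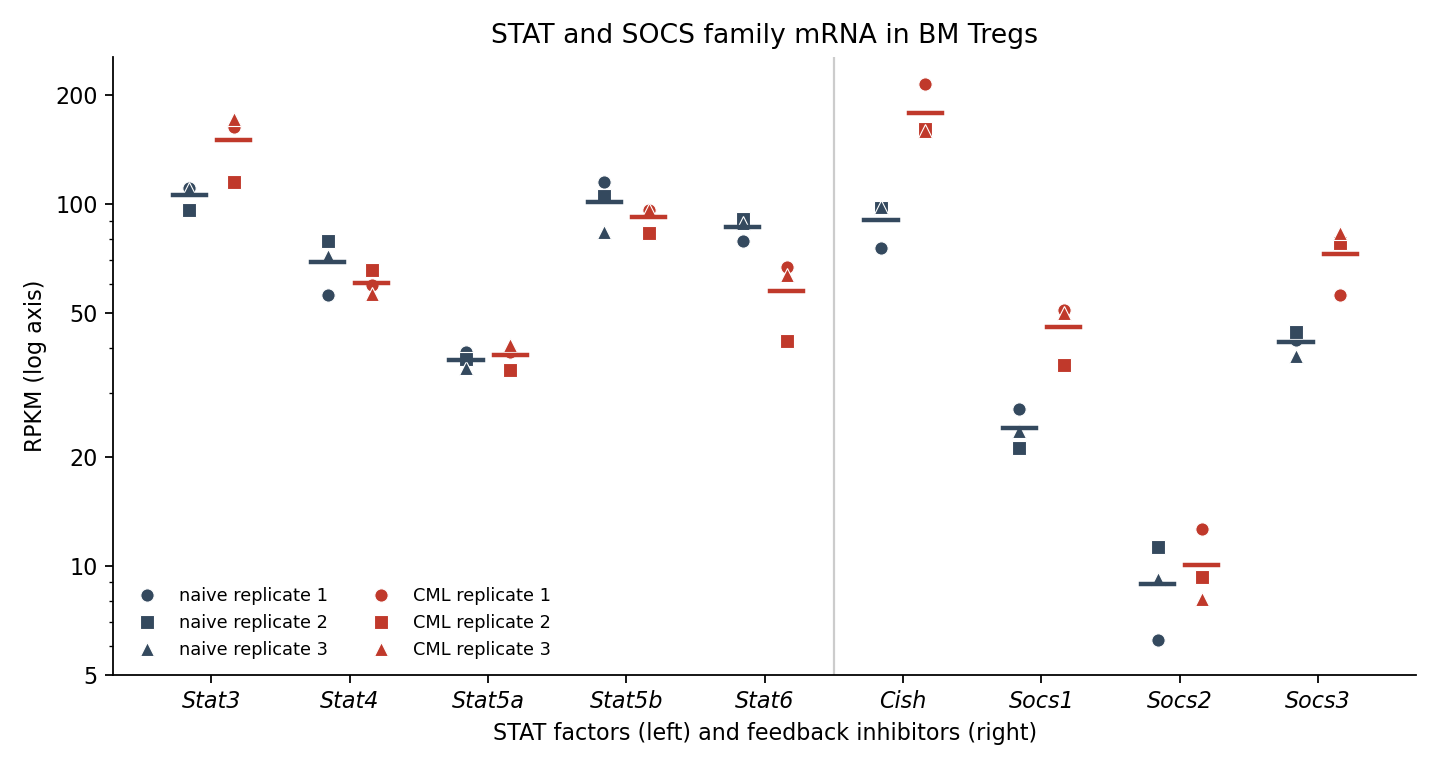
Level of each member in every library in RPKM on a log axis, with the factors left and the inhibitors right of the gray line. Each point is 1 mouse (naive dark, CML red, shape by replicate number) and each bar the group mean. The red points of Cish, Socs1, Socs3, and Stat3 lie above all dark points and those of Stat6 below them.

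The number of genes called over the whole table depended on single libraries and on the scaling between libraries. Of all genes, 6 were called higher and 18 lower, against 23 and 30 after quantile normalization, 5 and 41 with a shared 75th percentile, and 20 and 25 after rescaling without the 5 LOC features, an alternative chosen after seeing the data. Leaving out CML replicate 1 gave 0 higher and 17 lower, leaving out CML replicate 2 gave 10 and 6, and leaving out CML replicate 3 gave 0 and 6. Without naive replicate 1, 2, or 3 there was no call in either direction, with 249 to 261 genes higher and 493 to 600 lower at an unadjusted p under 0.05 with the same fold. The median of all genes was −0.18 in the fit reported, −0.01 after quantile normalization, −0.36 with a shared 75th percentile, and −0.05 without the 5 features.

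The inhibitors are described first. Cish (chr9:107296026-107302784, plus strand, GRCm38) encodes CISH, which is induced by STAT5 and restrains IL-2 and T cell receptor signaling. Cish was measured at 214, 161, and 159.6 RPKM in CML replicates 1, 2, and 3 and at 75.8, 97.6, and 98.4 RPKM in naive replicates 1, 2, and 3. The lowest CML library was thus above the highest naive library, and the means were 178 ± 31.1 and 90.6 ± 12.8 RPKM (SD, n = 3 each). Its log2 fold change was 0.97 (SE 0.19, 95% interval 0.53 to 1.40, limma adjusted p = 0.152), the largest among the members and the 512th from the highest of the 13923 genes. Within its own library, Cish ranked in the top 1.75% to 3.77% of features with reads in CML Tregs and in the top 4.74% to 8.48% in naive Tregs. Rescaled without the 5 LOC features, the log2 fold change was 1.12 (limma adjusted p = 0.0674). Exons of Cish share bases with Gm17040 (261 bases) and with the antisense gene Gm17041 (479 bases), and since the SMART-Seq kit does not mark strand, reads of an antisense partner cannot be told apart from those of Cish.

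Socs1 (chr16:10782240-10785536, minus strand) encodes an inhibitor that binds JAKs directly and limits IFN-γ and common γ chain cytokine signals. Its level was 51.0, 35.9, and 49.97 RPKM in the CML libraries and 27.1, 21.2, and 23.6 RPKM in the naive libraries, in the order of the replicates. CML replicate 2, where 86 estimated reads gave an interval of 28.5 to 44.1 RPKM (exact Poisson, 95%, counting error only), lay above the highest naive value. The interval of that value, naive replicate 1, ran from 24.6 to 29.9 RPKM, so these counting intervals overlapped. Means were 45.6 ± 8.45 and 24.0 ± 2.98 RPKM (SD, n = 3 each), with a log2 fold change of 0.89 (SE 0.23, 95% interval 0.36 to 1.42, limma adjusted p = 0.273).

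Socs3 (chr11:117966079-117970047, minus strand) encodes the inhibitor that docks on gp130 and shuts down STAT3 activation by IL-6 family cytokines. It was measured at 56.2, 78.3, and 83.2 RPKM in CML and at 42.1, 44.4, and 38.1 RPKM in naive replicates 1, 2, and 3. The groups did not overlap, with means of 72.6 ± 14.4 and 41.5 ± 3.17 RPKM (SD, n = 3 each). On the log2 scale the difference was 0.77 (SE 0.21, 95% interval 0.29 to 1.25, limma adjusted p = 0.282). Socs3 is also expressed by neutrophils and other myeloid cells, and the CML libraries with most neutrophil and myeloid marker RNA (replicates 2 and 3, at 212 and 217 RPKM in sum) were those with most Socs3. In CML replicate 1, where these markers summed to 21.4 RPKM, below every naive library, Socs3 at 56.2 RPKM was above every naive library. The part of these cells in the levels of Socs3 and the other members was not tested, and neither was that of erythroid RNA, whose markers were higher in every CML library.

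Socs2 (chr10:95385362-95417180, minus strand), best known for limiting growth hormone signaling, was the lowest of the members. It lay at 12.7, 9.32, and 8.11 RPKM in CML and at 6.26, 11.3, and 9.19 RPKM in naive replicates 1, 2, and 3. The groups overlapped, with means of 10.03 ± 2.36 and 8.90 ± 2.51 RPKM (SD, n = 3 each). Its log2 fold change of 0.17 had the widest interval of the members (−0.67 to 1.01, SE 0.36, limma adjusted p = 0.893), and in CML replicate 2 it rested on 33 estimated reads (6.46 to 13.2 RPKM by counting error). A difference of the size seen for Cish, Socs1, or Socs3 lies within that interval. Its sign changed when the libraries were set to a shared 75th percentile (−0.02) or naive replicate 1 was left out (−0.04).

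Among the factors, Stat3 (chr11:100885098-100939540, minus strand) was measured at 163, 115, and 172 RPKM in CML and at 110.5, 96.5, and 110.4 RPKM in naive replicates 1, 2, and 3. CML replicate 2 lay just above the naive libraries, whereas CML replicates 1 and 3 stood clear of them. Means were 150.0 ± 30.3 and 106 ± 8.02 RPKM (SD, n = 3 each). The log2 fold change of 0.48 (SE 0.19, 95% interval 0.04 to 0.92, limma adjusted p = 0.487) was 0.27 with a shared 75th percentile, where the groups overlapped. As a share of the features with reads in its library, the rank of Stat3 overlapped, at the top 2.58% to 4.46% in CML and 3.97% to 5.57% in naive Tregs. The rank itself did not overlap, at 418 to 562 in CML and 719 to 953 in naive libraries. All CML libraries had fewer features with reads.

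Stat6 (chr10:127642986-127660957, plus strand), the factor of IL-4 and IL-13 signaling, was the member whose CML libraries all lay below the naive libraries. It was measured at 67.2, 41.7, and 63.9 RPKM in CML and at 79.3, 91.0, and 88.9 RPKM in naive replicates 1, 2, and 3. CML replicate 2, with 131 estimated reads and a counting interval of 35.0 to 49.7 RPKM, was the lowest. Group means were 57.6 ± 13.8 and 86.4 ± 6.26 RPKM (SD, n = 3 each), and the log2 fold change was −0.60 (SE 0.22, 95% interval −1.11 to −0.10, limma adjusted p = 0.439). Without CML replicate 2 it was −0.39. By rank, Stat6 stood in the top 9.45% to 17.9% of features with reads in CML and in the top 5.47% to 7.97% in naive Tregs. Exons of Stat6 share 40 bases with Nab2 on the opposite strand, which was measured at 18.9 to 38.2 RPKM in CML and 17.7 to 22.2 RPKM in naive libraries.

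Stat5a and Stat5b, the paralogous factors that carry the IL-2 signal to Foxp3, overlapped between the groups. Stat5b (chr11:100780731-100850724, minus strand) was measured at 96.0, 83.3, and 96.5 RPKM in CML and at 115, 105.5, and 83.7 RPKM in naive replicates 1, 2, and 3, with means of 91.9 ± 7.52 and 101.5 ± 16.1 RPKM (SD, n = 3 each). Stat5a (chr11:100859351-100885169, plus strand) was measured at 39.1, 34.8, and 40.7 RPKM in CML and at 39.0, 37.2, and 35.3 RPKM in naive replicates 1, 2, and 3, with means of 38.2 ± 3.01 and 37.2 ± 1.84 RPKM (SD, n = 3 each). The values of both genes lay close together, and the intervals of their log2 fold changes ran from −0.39 to 0.47 for Stat5a (0.04, SE 0.19, limma adjusted p = 0.957) and from −0.54 to 0.28 for Stat5b (−0.13, SE 0.18, limma adjusted p = 0.818). A difference as large as that of Cish lies outside both intervals. With a shared 75th percentile Stat5a was at −0.17, and without CML replicate 3 at −0.01. Stat5b was at 0.02 after rescaling without the 5 LOC features, while a shared 75th percentile (−0.34) or leaving out naive replicate 3 (−0.26) put all its CML libraries below all naive libraries. Stat5a, Stat5b, and Stat3 sit side by side on chromosome 11: 8626 bases separate Stat5b from Stat5a, and Stat5a shares 72 exon bases with Stat3 on the opposite strand.

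Stat4 (chr1:51987148-52107189, plus strand), which carries the IL-12 signal toward IFN-γ, was measured at 59.8, 65.8, and 56.4 RPKM in CML and at 56.1, 78.9, and 72.0 RPKM in naive replicates 1, 2, and 3. Naive replicate 1 was the lowest of the 6 libraries and the other naive libraries were the highest, so the groups overlapped at means of 60.7 ± 4.79 and 69.0 ± 11.7 RPKM (SD, n = 3 each). The log2 fold change was −0.17 (SE 0.19, 95% interval −0.61 to 0.27, limma adjusted p = 0.772). Without naive replicate 1, all CML libraries lay below the remaining naive libraries (−0.31). Exons of Stat4 share 1033 bases with Gm28177 on the same strand.

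**Figure D2:**
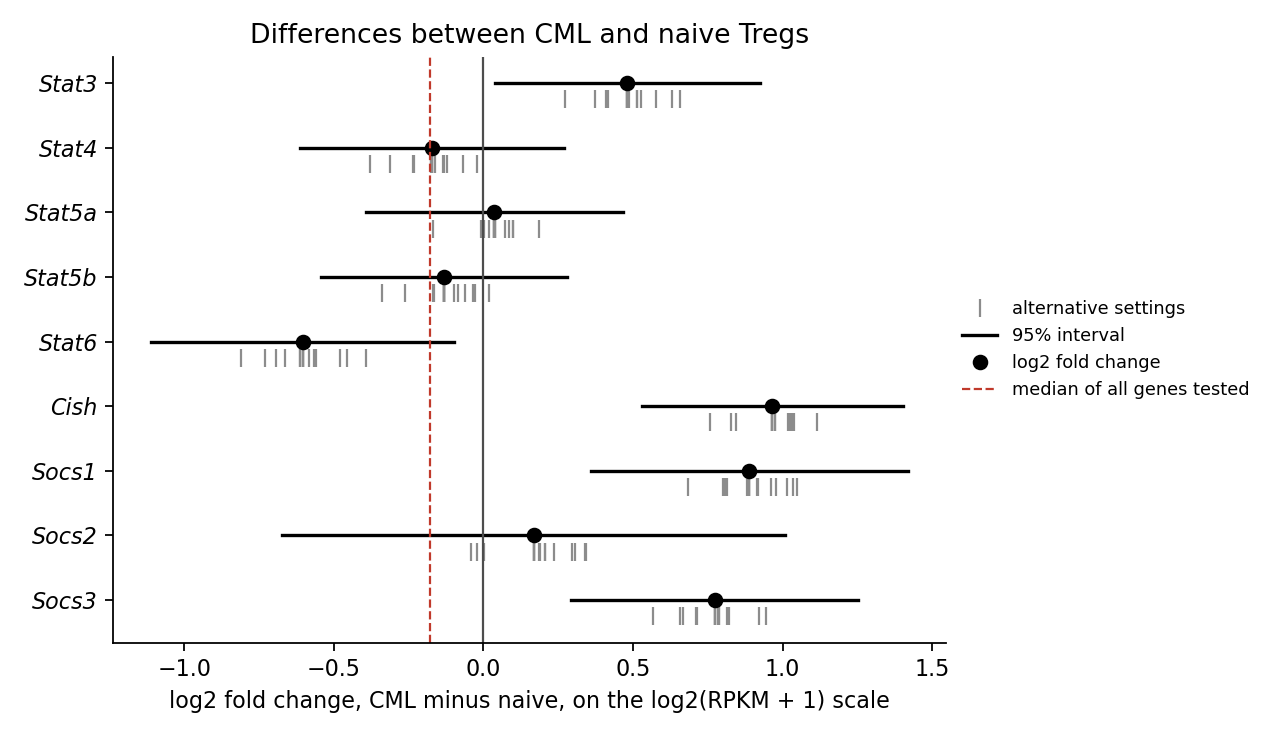
Log2 fold change of each member, CML minus naive, on the log2(RPKM + 1) scale (points) with its 95% interval from limma (lines) and its value under the 16 alternative settings (gray ticks). The dashed line marks the median of all genes tested, −0.18. The intervals of Cish, Socs1, Socs3, and Stat3 lie above zero and that of Stat6 below it, and all ticks of these 5 genes keep the sign of their point.

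Cish, Socs1, Socs3, Stat3, and Stat6 kept their direction in all 16 alternative settings, which include 3 other scalings and each library left out in turn, as the plot of fold changes shows. Because the groups of these genes do not overlap, only the 3 other scalings could have reversed a sign. The remaining settings therefore do not test the direction. Over all 16 settings, scalings included, the log2 fold change ranged from 0.76 to 1.12 for Cish, from 0.69 to 1.05 for Socs1, and from 0.57 to 0.94 for Socs3. It ranged from 0.27 to 0.66 for Stat3 and from −0.81 to −0.39 for Stat6. No setting brought any member under an adjusted p of 0.05, and the smallest was the 0.0674 of Cish. All CML libraries had fewer features with reads and a larger share in the 5 LOC features, and the part of depth in these differences was not tested. In bulk libraries a smaller number of cells of a type and less RNA per cell cannot be told apart.

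If the deposited values are RPKM, as assumed, they are levels per length and may be set side by side between members. The transcript lengths used are not given, so the order of members and ratios between them depend on unknown lengths. In naive Tregs, Stat3 (106 RPKM), Stat5b (101.5 RPKM), Cish (90.6 RPKM), and Stat6 (86.4 RPKM) led, each overlapping the next in range. Stat4 (69.0 RPKM) lay apart below Stat6, then Socs3 and Stat5a overlapped near 41.5 and 37.2 RPKM, and Socs1 (24.0 RPKM) and Socs2 (8.90 RPKM) each lay apart. In CML Tregs, Cish (178 RPKM) came before Stat3 (150.0 RPKM), with overlapping ranges. Stat5b (91.9 RPKM) lay apart from both Stat3 above and Socs3 (72.6 RPKM) below, and Socs3, Stat4, Stat6, Socs1, and Stat5a each overlapped the next. Socs2 (10.03 RPKM) was again last and apart. Cish thus moved from the third to the first place among the members, and Socs3 from the sixth to the fourth, whereas Stat6 moved from the fourth to the sixth.

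Ratios within a library do not depend on a scaling by 1 factor per library, though quantile normalization can move them. Stat5b stood above Stat5a by 2.46, 2.39, and 2.37 times in CML and by 2.96, 2.83, and 2.37 times in naive replicates 1, 2, and 3. The ratios overlapped at means of 2.41 ± 0.0433 and 2.72 ± 0.308 (SD, n = 3 each), and the log2 ratio differed by −0.17 (exact 2-sided permutation test over 20 assignments, p = 0.4). Between these paralogs, 6.15% of the 75-base windows of the longest Stat5a transcript and 7.53% of those of Stat5b are identical, and no other pair of members shares such a window.

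Further ratios were picked with their values already known and are given without a test. Cish stood at 1.59, 1.37, and 1.16 times the summed level of Stat5a and Stat5b in CML replicates 1, 2, and 3, and at 0.492, 0.684, and 0.827 times in naive replicates 1, 2, and 3. By these values, whose transcript lengths are not given, Cish exceeded its inducing factors in sum in each CML library and in no naive library. Socs3 stood at 0.345, 0.678, and 0.485 times the level of Stat3 in CML and at 0.381, 0.460, and 0.345 times in naive Tregs, so these ratios overlapped. Stat3 stood at 2.43, 2.76, and 2.69 times the level of Stat6 in CML and at 1.39, 1.06, and 1.24 times in naive Tregs, with no overlap.

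**Figure D3:**
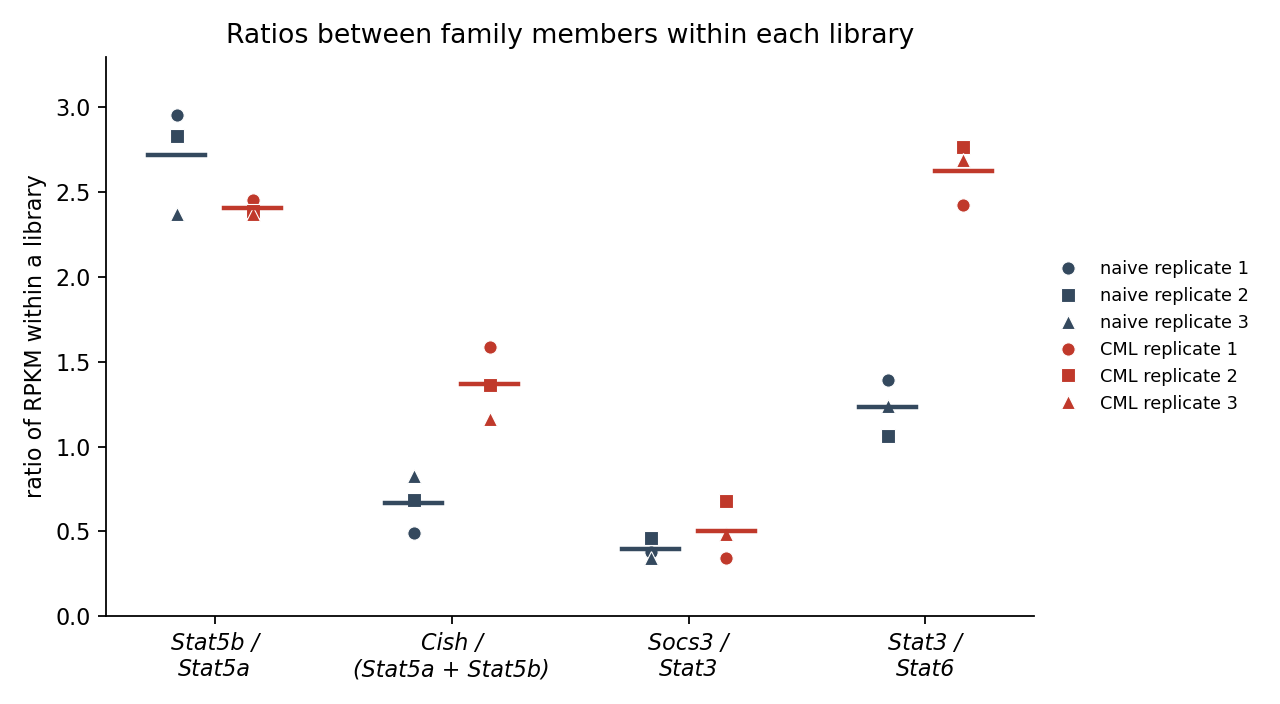
Ratio of RPKM values within each library for 4 pairings of members, with 1 point per mouse (naive dark, CML red) and bars at the group means. Cish against the sum of Stat5a and Stat5b and Stat3 against Stat6 separate the groups, whereas Stat5b against Stat5a and Socs3 against Stat3 overlap.

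The rest of the pathway was read from lists of factors, kinases, brakes, receptors, ligands, and targets. No gene of any list passed the adjusted p of 0.05 with the fold of 1.5. Stat2, a factor of type I interferon signaling, overlapped between the groups, at 48.1 to 54.1 RPKM in CML and 35.1 to 50.8 RPKM in naive libraries. Of the other SOCS genes Socs4, Socs5, Socs6, and Socs7, none was higher in every CML library, beside 4.84% of all genes, and their median log2 fold change was −0.24, beside −0.18 for all genes. Of these 4 SOCS genes, 1 was lower in every CML library, beside 12.2% of all genes. This was Socs5, at 8.15 to 11.2 RPKM against 12.9 to 20.03 RPKM (log2 fold change −0.67, SE 0.31, limma adjusted p = 0.541). Socs4 overlapped, at 10.1 to 29.1 and 23.3 to 32.8 RPKM.

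Of the 4 Janus kinases, 1 was higher at an unadjusted p under 0.05 and the fold of 1.5, beside 2.61% of all genes. Jak3, the kinase that pairs with the common γ chain, was measured at 119, 86.2, and 123 RPKM in CML and at 55.3, 60.5, and 73.2 RPKM in naive replicates 1, 2, and 3. All CML values were above all naive values (log2 fold change 0.78, SE 0.20, limma adjusted p = 0.281). This held for 1 of the 4 kinases, beside 4.84% of all genes. Jak1 overlapped at 220.5 to 295.5 and 274 to 327 RPKM. Among 8 other brakes, the PIAS proteins, the phosphatases, and Sh2b3, none was higher and 1 was lower at the same threshold, beside 2.61% and 5.94% of all genes. All CML libraries lay below all naive libraries for 2 of the 8 and above them for none, beside 12.2% and 4.84% of all genes. The median log2 fold change of these brakes was −0.43. Sh2b3, which encodes the adaptor LNK that restrains JAK2, was at 17.3, 8.79, and 17.0 RPKM in CML and 27.0, 23.1, and 26.7 RPKM in naive Tregs, without overlap (log2 fold change −0.84, SE 0.32, limma adjusted p = 0.458). Ptpn6, the gene of the phosphatase SHP-1, was also below naive in every CML library, at 91.6 to 126 RPKM against 128 to 179 RPKM (limma adjusted p = 0.555).

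Of the 16 receptor chains, 2 were higher and 2 lower at that unadjusted threshold, beside 2.61% and 5.94% of all genes. The median log2 fold change of the chains was 0.18. Il2rb, the chain that IL-2 and IL-15 share, was measured at 540, 344, and 604 RPKM in CML and at 191, 191, and 226 RPKM in naive replicates 1, 2, and 3. It stood apart from the naive libraries in every CML library (log2 fold change 1.25, SE 0.22, limma adjusted p = 0.115), whereas the common γ chain Il2rg was lower in each, at 225 to 265 RPKM against 282.5 to 339 RPKM (−0.34, SE 0.14, limma adjusted p = 0.513). Il6ra, the IL-6 binding chain upstream of Stat3, lay at 30.2, 15.7, and 14.2 RPKM in CML and at 65.4, 57.5, and 60.4 RPKM in naive Tregs. The log2 fold change of Il6ra was −1.64 (SE 0.30, limma adjusted p = 0.125). The IFN-γ receptor chains went separate ways, Ifngr1 being above naive in every CML library (504 to 673 against 280 to 326 RPKM, log2 fold change 0.93, SE 0.16, limma adjusted p = 0.0967) and Ifngr2 below it (8.81 to 17.1 against 22.7 to 24.9 RPKM, −0.95, SE 0.30, limma adjusted p = 0.369). The IL-27 receptor Il27ra was below naive in every CML library too, at 65.1 to 84.9 RPKM against 91.8 to 113.5 RPKM (−0.42, SE 0.18, limma adjusted p = 0.506).

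Of 9 ligands, 5 were high enough to be tested, and for none did the groups separate. Among all genes, 4.84% had all CML libraries above and 12.2% all below the naive libraries. Il10 was at 28.4, 4.49, and 26.9 RPKM in CML and at 4.31, 7.01, and 4.97 RPKM in naive replicates 1, 2, and 3, so that CML replicate 2 was as low as the naive libraries. Ifng overlapped as well, at 17.7, 18.0, and 58.9 RPKM in CML and 19.1 to 21.4 RPKM in naive Tregs. Of 13 further textbook targets of STAT5 and STAT3, 3 were higher at the unadjusted threshold and none was lower, beside 2.61% and 5.94% of all genes. Their median log2 fold change was 0.23, with 8 of 13 above zero. Prdm1, the gene of the effector regulator BLIMP-1, was at 53.5, 39.4, and 51.9 RPKM in CML and 19.9, 21.3, and 21.9 RPKM in naive Tregs, with no overlap (log2 fold change 1.15, SE 0.21, limma adjusted p = 0.131). Bcl3, an IκB family coregulator, was at 58.8, 43.0, and 43.5 RPKM in CML and 19.3, 28.0, and 25.05 RPKM in naive Tregs, again with no overlap (0.98, SE 0.24, limma adjusted p = 0.245). Maf, a factor of IL-10 production, overlapped at 57.4 to 92.0 and 38.6 to 59.9 RPKM (0.62, SE 0.25, limma adjusted p = 0.487).

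**Figure D4:**
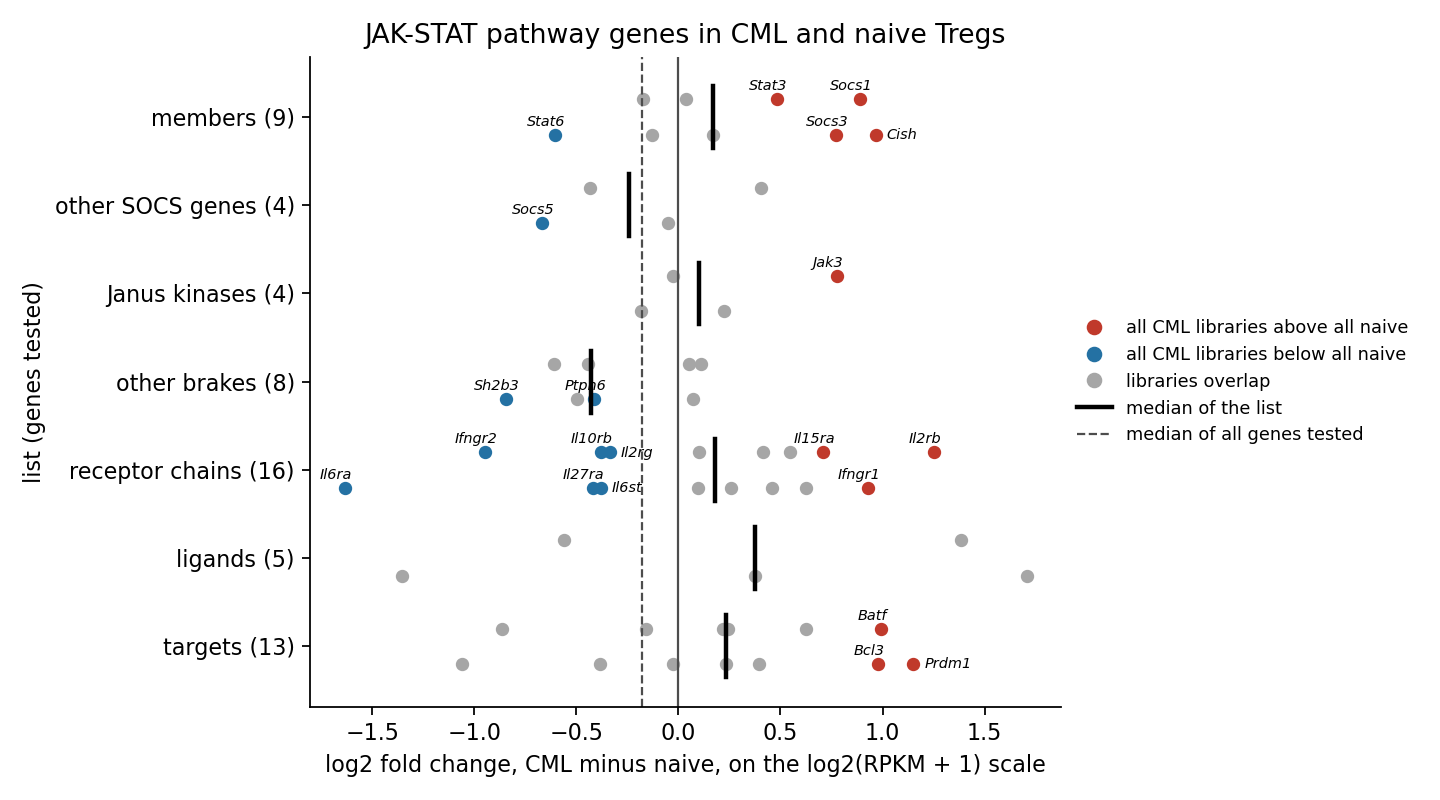
Log2 fold change, CML minus naive, on the log2(RPKM + 1) scale for the members and the other pathway genes, by list, with the number of genes tested in parentheses. Red and blue points are genes whose CML libraries all lie above or all below the naive libraries, black bars are list medians, and the dashed line is the median of all genes tested (−0.18). The list medians run from −0.43 for the other brakes to 0.38 for the ligands, and that of the members is 0.17.

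Genes with profiles most like a member were found by the root mean square (RMS) difference of gene-centered log2(RPKM + 1) values over the 6 libraries. For Cish these were Bcl3 (RMS 0.0551), Ifngr1 (RMS 0.0967), and Glipr1 (RMS 0.0996). Bcl3 followed Cish in being highest in CML replicate 1, near equal in CML replicates 2 and 3, and lowest in naive replicate 1. For Stat3 they were Ctdspl2 (RMS 0.0674), Arnt2 (RMS 0.0714), and 1700017B05Rik (RMS 0.0724), which like Stat3 were higher in CML replicates 1 and 3 than in CML replicate 2. For Stat4 they were Pisd (RMS 0.0349), Kifc5b (RMS 0.0668), and Kdm4b (RMS 0.0696), none of which separated the groups.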

How the data were processed

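RNA of FACS-purified BM Tregs was measured in 3 CML and 3 naive mice. Groups and replicate numbers came from the sample labels. The authors made SMART-Seq v4 libraries, assembled the reads with SeqMan NGen v.15, and analyzed them with ArrayStar v.15. The submitters' processing notes name build GRCm38 (mm10), and the annotation and counting settings are not given in the sources used here. RPKM was taken as the unit of the deposited values, which is an assumption, since the methods name none. Value times length of short RNA genes fell near whole multiples of a step for only a part of the products. That part was 30.7% to 59.8% of products beyond the first step in a library (within 0.05 of a whole number). Reads were estimated from that step, are approximate, and were used only for depth and counting intervals. A value of 0.001 marks no reads and was set to 0, and the 41 feature names that occur more than once were kept as separate features. Because the deposited values are not counts, the count-based test of the study was not run.

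limma 3.58.1 in R 4.3.3 was fitted with a variance trend to log2(RPKM + 1) of the 13923 genes averaging 1 RPKM or more. Benjamini-Hochberg adjustment ran over all of them. The fit was also run on simulated data with less noise than these libraries, which does not show its performance at their noise. Tables and exact tests were made in Python 3.11.15 (scipy 1.17.1, pandas 2.3.3, numpy 2.4.6). Positions are from GENCODE M21 and promoter windows from RefSeq. Results on some list genes that fall under the naming rule are not reported here. The members and lists were chosen with earlier results of these data known. Named are the members, list genes at an unadjusted p under 0.05 or otherwise the 2 of highest mean in a list, and the 3 genes most like Cish, Stat3, and Stat4. Alternatives covered the pseudocount, the filter, the scaling, the trend, library weights, the replicate block, and each library left out.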

Additional observations from a re-analysis of the deposited data

How the results depend on the processing

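Of 206 comparisons with an alternative setting, 172 kept their direction and call, or stayed within 1.5 times of a count. Many of the 172 could not have differed, so this tally does not measure robustness. For the number of genes called higher, 3 of 16 alternatives stayed within 1.5 times, and for genes called lower also 3 of 16. The filter, the trend, and the replicate block leave a member's fold change as it is, so its direction could not change there. Genes called higher numbered 6 in the fit reported. They were 17 with library weights, 23 after quantile normalization, 20 after rescaling without the 5 LOC features (chosen after seeing the data), and 0 without a filter, without a trend, or with a pseudocount of 0.001, where 361, 383, and 323 passed an unadjusted p under 0.05 with the fold. Leaving out 1 library gave 0 to 10. Genes called lower numbered 18. They were 28 with library weights, 30 after quantile normalization, 41 with a shared 75th percentile, 11 with a mean of at least 5 RPKM or without a trend, 1 without a filter, and 0 with a pseudocount of 0.001 (650 unadjusted). Leaving out 1 library gave 0 to 17. With the replicate block, 0 genes were higher (325 unadjusted) and 1 was lower. Same-numbered libraries did not deviate together over all genes (correlations of −0.00477, −0.00159, and −0.0192), and the other pairs ran from −0.0419 to 0.0518. The replicate numbers thus gave no sign of a pairing of mice, but such correlations cannot exclude one. The causes of these shifts were not tested.

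The log2 fold change of Socs2 was −0.0204 and that of Stat5a −0.168 with a shared 75th percentile, and that of Stat5b was 0.0182 after rescaling. Leaving out 1 library gave −0.0398 to 0.338 for Socs2 and −0.00849 to 0.0999 for Stat5a. Members with all CML libraries lower numbered 2 in place of 1 with a shared 75th percentile (Stat6 and Stat5b), without naive replicate 1 (Stat6 and Stat4), and without naive replicate 3 (Stat6 and Stat5b), and 1 to 2 over all libraries left out. Fits without a naive library leave 2 naive mice. Depth limits Socs2 most, with 33 to 419 estimated reads in a library.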
